A study of Mus musculus with 23 samples.

Results

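DP liver ILC1s, sorted as positive for current granzyme C and for the fate map of its past expression, were compared with DN liver ILC1s, sorted as negative for both. The comparison rests on 7 bulk RNA-seq libraries, 4 DP from mice 3, 4, 5 and 6 and 3 DN from mice 2, 4 and 6, chosen by their labels from the 15 RNA libraries and 23 libraries in all of the series. DP cells were sorted as GzmC+GzmcFM+ and DN cells as GzmC-GzmcFM-, where GzmC is current granzyme C and GzmcFM the genetic fate map of its past expression. Each library holds all cells of its population from the liver of 1 mouse, so mice 4 and 6 gave both a DP and a DN library. Mice 3 to 6 also gave 4 libraries of FMSP ILC1s (GzmC-GzmcFM+, past expression only), and mice 1, 4, 5 and 6 gave 4 of NK cells sorted on an S1pr5eGFP reporter, which serve here as levels to set DP and DN against. The age, sex and strain of the mice and the alleles behind the reporters are not given in the sources used here, and no group was treated.

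ILC1s are group 1 innate lymphocytes that stay in tissues such as the liver, carry CD49a (Itga1) and CXCR6, and share natural killer receptors and the T-box factor T-bet with circulating NK cells. NK cells in addition depend on a second T-box factor, Eomes, and use sphingosine-1-phosphate receptors to move from tissue into the blood. Granzymes are serine proteases stored in cytotoxic granules with perforin, which lets them into a target cell.

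The RNA libraries of the 7 samples held 54288118 to 73309063 counts, and 15188 to 17869 genes had at least 1 count. Levels are given as CPM, counts scaled to a common library size after TMM normalisation, without correction for gene length, so they are compared between libraries and not between genes. Liver ILC1 identity was checked on 20 genes typical of these cells (among them Cxcr6, Itga1, Zfp683 and Tmem176b), whose summed level was 6428 to 7652 CPM in DP and 3057 to 5786 CPM in DN, against 323 to 566 CPM in NK libraries. The DN library of mouse 2 stood apart from the other 6. Of all genes tested, 378 were over 8-fold higher in it than in the next highest of the 7 libraries, against at most 17 such genes in any other. The stromal and developmental genes Shisa2 (389 CPM), Palld (173 CPM), Tead2 (154 CPM) and Dkk1 (89.7 CPM) were at or below 5.13 CPM in each of the other 6, and 18 hepatocyte markers summed to 1072 CPM there against 209 to 397 CPM in the others. Its log2 CPM correlated with those of the other DN libraries at r = 0.772 and 0.771, while those 2 correlated at 0.898. Among DP libraries that of mouse 3 was the least like the rest (r = 0.865 to 0.894, against 0.916 to 0.929 among mice 4 to 6). Results that rest on the DN library of mouse 2 are therefore given with and without it.

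Few genes passed the test between DP and DN. In edgeR's quasi-likelihood test over 17124 genes, 10 genes were called at a Benjamini-Hochberg adjusted p below 0.05 (0.0584% of those tested), 2 higher in DP (0.0117%) and 8 lower (0.0467%). The 2 higher genes were the granzymes Gzmc and Gzmb. Among the 8 lower were Eomes, Cma1, Klra4, S1pr5, Klra1, Rhpn1 and Gramd3. All of these but Gramd3 and Klra1 stood higher in the NK libraries than in any DP or DN library. For Klra1, DN of mouse 4 (70.8 CPM) exceeded the lowest NK library (52.0 CPM). The NK cells were sorted on an S1pr5eGFP reporter, so their S1pr5 level is not a finding. With the mouse as a block, which fits the single libraries of mice 1 and 2 exactly and so draws on mice 3 to 6, 22 genes were called (0.128%). Within mice 4 to 6 alone 38 of 18125 genes were called (0.21%), all 10 genes among them. DESeq2 called 470 of 16313 genes (2.88%), again with all 10. Without the DN library of mouse 2, 12 genes were called, 9 of the 10 among them. With only the DP and DN libraries fitted, which leaves 5 residual degrees of freedom, 3 genes were called, and of the 10 these included Gzmc and Gramd3 alone.

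**Figure D1:**
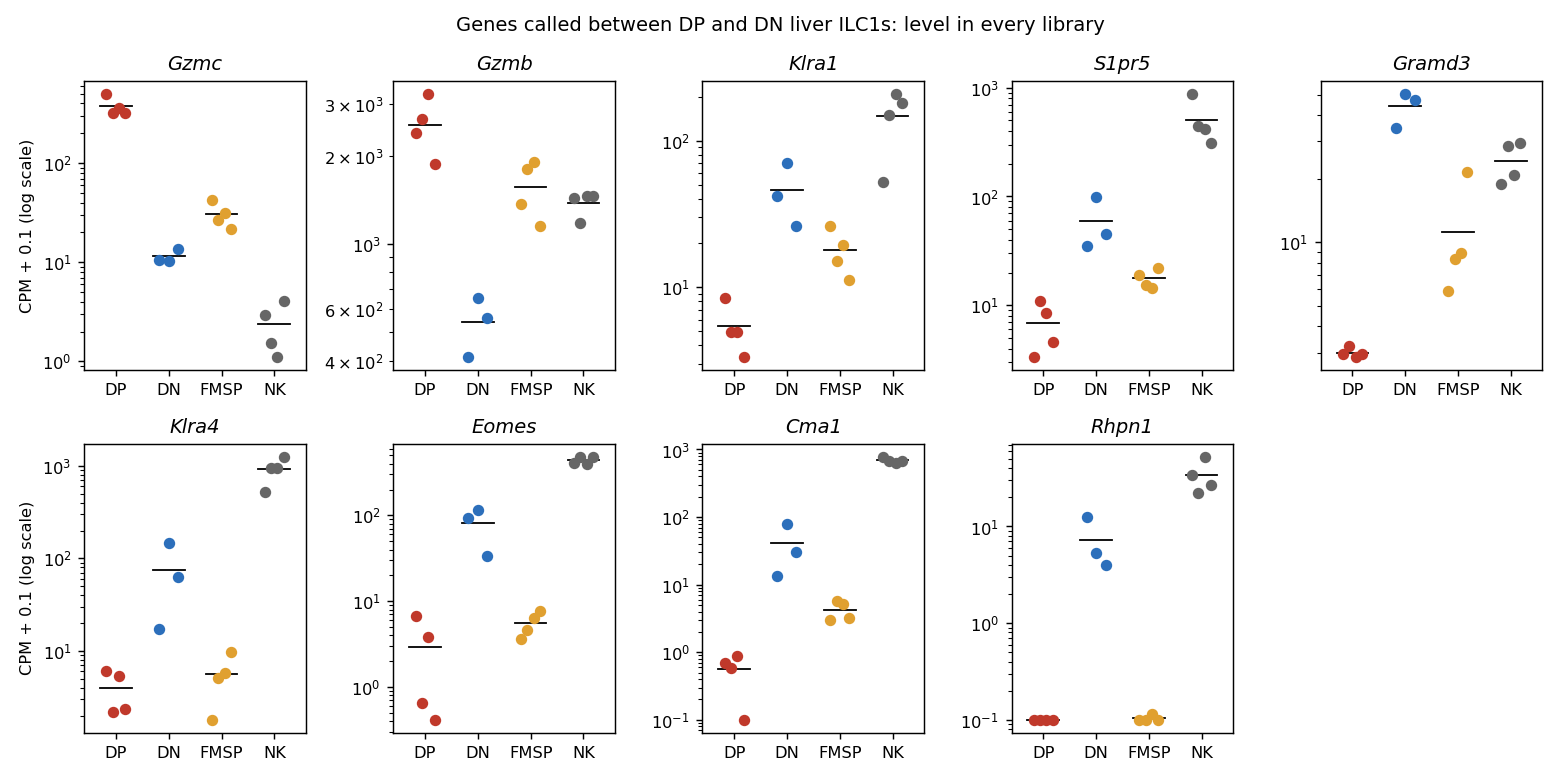
Level of 9 called genes in each of 15 libraries (points, CPM + 0.1 on a log axis whose range differs between panels) and group mean (line), by population in the order DP, DN, FMSP and NK. The DP and DN points do not overlap in any panel, and Gzmc and Gzmb are the panels in which DP is above DN.

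Gzmc is the gene the cells were sorted on, so its level checks the label of current granzyme C and is not a finding. It had 496, 320, 360 and 320 CPM in the DP libraries of mice 3, 4, 5 and 6, against 10.5, 10.2 and 13.6 CPM in the DN libraries of mice 2, 4 and 6. Every DP library was above every DN library, so the label of current granzyme C held in all 7. The fate map part of the labels cannot be checked on Gzmc RNA. The fitted log2 difference was 5.03 ± 0.47 (SE), with an adjusted p of 0.000435 by edgeR's quasi-likelihood test. The level in DN was not 0: it lay below the 21.8 to 42.0 CPM of FMSP cells and above the 1.01 to 3.92 CPM of NK cells.

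Gzmb, granzyme B, the protease that cleaves and activates caspases in target cells, rose with it. It had 2388, 2661, 3243 and 1878 CPM in DP of mice 3 to 6, against 412, 654 and 558 CPM in DN of mice 2, 4 and 6. The groups were far apart, and the lowest DP library was higher than every NK library (1176 to 1463 CPM) while the highest DN library was below all of them. DP averaged 2542 ± 569 CPM (SD, n = 4) and DN 541 ± 122 CPM (SD, n = 3), a log2 difference of 2.23 ± 0.25 (adjusted p = 0.00133 by edgeR). The call did not hold when only the DP and DN libraries were fitted, with the other populations left out of the estimate of spread (log2 difference 2.19, adjusted p = 0.0981 by edgeR).

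The promoters of Gzmc and Gzmb are shown because these are the genes that rose, together with that of Cma1, the chymase gene at the other end of the same protease locus, which fell. All 3 lie on chromosome 14 of GRCm38: Cma1 at chr14:55941451-55944675, Gzmc at chr14:56231397-56241647 and Gzmb at chr14:56258836-56262334, with 287 kb between the spans of Cma1 and Gzmc and 17.2 kb between those of Gzmc and Gzmb. All 3 are transcribed along the minus strand, on which the 250 bases before a transcription start, from RefSeq on GRCm38.p6, are printed. For Gzmb and Cma1 that start is the end of the span, whereas for Gzmc it is a start 6.99 kb inside it, at position 56234657 and 27.7 kb from that of Gzmb. They cover chr14:56234658-56234907 for Gzmc, chr14:56262335-56262584 for Gzmb and chr14:55944676-55944925 for Cma1, and capitals mark the RUNX motif TGTGGTT or its reverse complement AACCACA.
Gzmc: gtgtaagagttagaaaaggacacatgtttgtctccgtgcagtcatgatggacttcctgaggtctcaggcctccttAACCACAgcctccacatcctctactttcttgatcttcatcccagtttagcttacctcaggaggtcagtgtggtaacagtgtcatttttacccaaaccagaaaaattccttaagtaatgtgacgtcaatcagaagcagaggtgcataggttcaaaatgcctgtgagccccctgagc
Gzmb: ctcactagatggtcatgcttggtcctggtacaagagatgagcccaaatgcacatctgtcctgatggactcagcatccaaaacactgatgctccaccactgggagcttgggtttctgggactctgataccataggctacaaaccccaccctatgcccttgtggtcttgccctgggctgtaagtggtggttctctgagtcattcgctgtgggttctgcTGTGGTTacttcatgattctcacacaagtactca
Cma1: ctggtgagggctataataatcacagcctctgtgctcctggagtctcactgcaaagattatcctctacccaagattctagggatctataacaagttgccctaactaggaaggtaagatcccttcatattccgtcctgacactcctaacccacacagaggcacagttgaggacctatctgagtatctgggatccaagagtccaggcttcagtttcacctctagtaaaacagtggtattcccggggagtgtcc
The RUNX letters, searched on both strands, were found once in Gzmc (175 to 169 bases before the start, on the opposite strand) and once in Gzmb (34 to 28 bases before it), and not in the Cma1 window. Of 32851 RefSeq promoter windows of this length, 4.4% hold them. Of the 7 called genes whose promoter windows were searched, Klra1 alone also held the RUNX letters. None of the 7 held the T-box letters GGTGTGA on either strand, which 3.33% of all windows hold. Such matches describe the letters only.

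Chromatin at these promoters was measured by ATAC-seq, which counts transposase cuts in open chromatin, in liver ILC1s and liver NK cells, 2 libraries each, but not in DP and DN separately. The labels give these ILC1s both as CD49a+ cells and as GzmC+GzmcFM+ cells. The peak over that inner Gzmc start (chr14:56234259-56235420, mm10) had 86 and 206 counts in ILC1, or 14.5 and 20.7 CPM over all peaks, against 45 and 28 counts, or 7.04 and 4.99 CPM, in NK. Over the Gzmb start (chr14:56261689-56263005) there were 63.4 and 70.8 CPM in ILC1 and 50.4 and 59.5 CPM in NK. Over the Cma1 start (chr14:55944257-55944898) there were 3.04 and 3.42 CPM in ILC1 and 14.1 and 12.3 CPM in NK. ILC1 was the higher population at Gzmc and Gzmb and the lower at Cma1 in both libraries. These differences were not tested.

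Other granule genes did not pass the test. Of the 20 genes of the cytotoxic granule list, which names granzymes, perforin, granule proteins, death ligands and the serpins that hold granzymes in check, 16 were tested and Gzmc and Gzmb were called. The counts of this list include Gzmc, the gene the cells were sorted on. Of the 16, 12 had a positive difference, with a median log2 difference of 0.60, beside −0.09 over all genes tested. DP and DN did not overlap for 6 that were higher in DP and 2 that were lower, where 4.22% and 4.12% of all genes tested stood apart in this way. Perforin (Prf1) had 700, 454, 426 and 328 CPM in DP and 405, 515 and 425 CPM in DN. Its groups overlapped, and the log2 difference of 0.09 had a 95% interval of −0.60 to 0.78. Gzma, the other granzyme that liver ILC1s and NK cells both transcribe, had 2150, 4027, 1851 and 901 CPM in DP and 1398, 1819 and 674 CPM in DN, also overlapping (log2 difference 0.78, interval −0.27 to 1.84). The serglycin gene Srgn, whose product packs granzymes into granules, had 735 to 902 CPM in DP and 321 to 582 CPM in DN without overlap (adjusted p = 0.324 by edgeR, 0.0199 by DESeq2). Cathepsin C (Ctsc), the enzyme that activates granzymes, had 293 to 337 CPM in DP and 194 to 226 CPM in DN (adjusted p = 0.34 by edgeR, 0.0135 by DESeq2).

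The granzyme genes Gzmd, Gzme, Gzmf and Gzmg, on the side of Gzmc away from Gzmb, were at or close to 0. Gzme and Gzmg had no count in any of the 7 libraries, Gzmd had 1 count in DP and 0 in DN, and Gzmf had 24 counts over the 4 DP libraries and 0 in DN. These genes are close copies of Gzmc, and how reads shared between copies were divided is not given in the sources used here. Gzmk and Gzmm, which lie elsewhere, were low in both groups: at most 1.97 CPM in DP, against 1.34 to 13.0 CPM in DN, and neither was called.

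**Figure D2:**
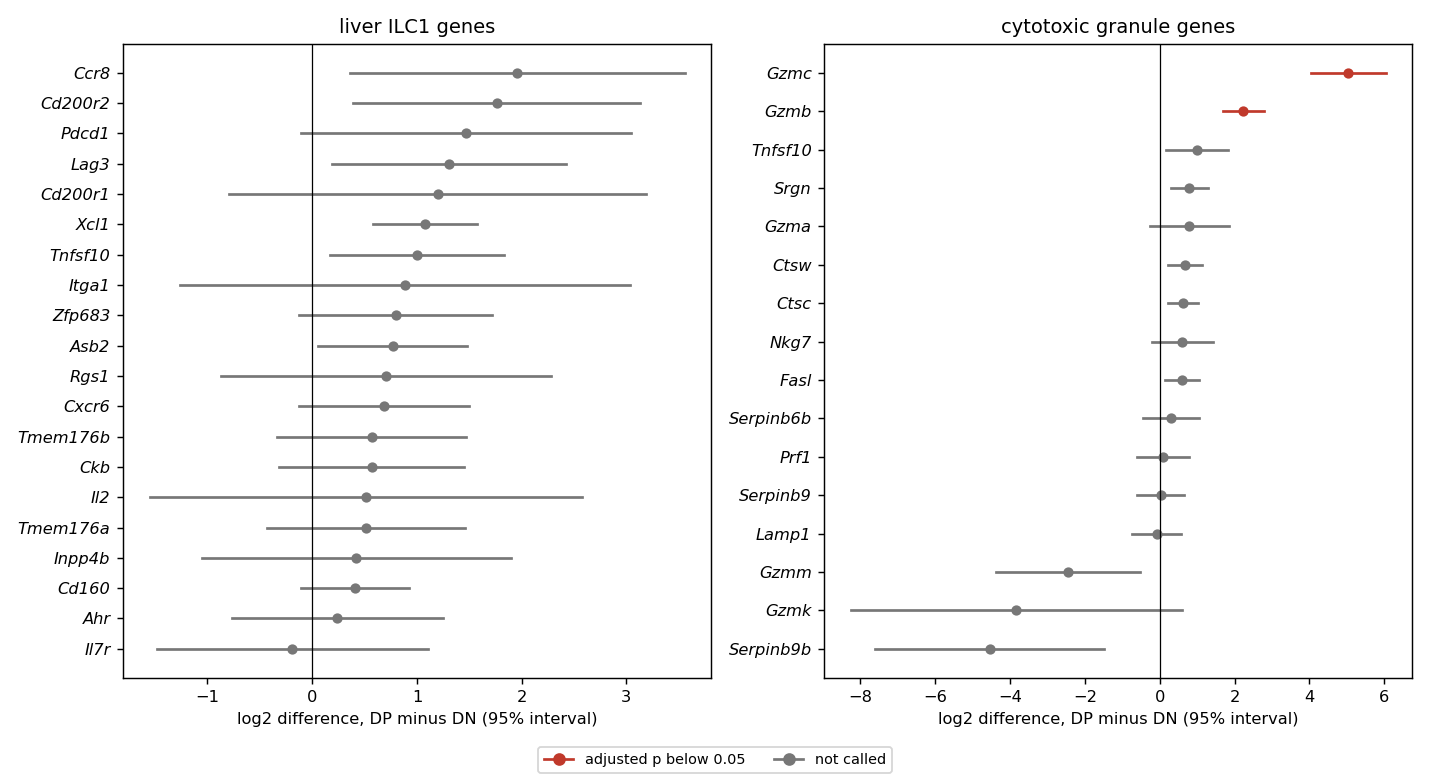
Fitted log2 difference, DP minus DN, with its 95% interval for the tested genes of the liver ILC1 list (left) and the cytotoxic granule list (right), called genes in red. Gzmc and Gzmb are the called genes, and Prf1 and Il7r sit near 0.

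The genes that fell were mostly genes of conventional NK cells. Of 18 such genes on the list (Eomes, S1pr5, Klf2, Zeb2, Klrg1, Itgam and others), all 18 had a negative difference. Of these, 5 were called (Eomes, Cma1, Klra4 and S1pr5 among them), and DP lay below DN without overlap for 10. Of all genes tested, 0.0467% were called as lower and 4.12% lay below DN without overlap. The count of 5 moved with the libraries in the fit. It was 9 within mice 4 to 6, where Klf2, Ly6c2, Rasgrp2 and Zeb2 were called too, and 7 with the mouse as a block. With only the DP and DN libraries it was 0, without DP of mouse 5 or of mouse 6 it was 1, and without DP or DN of mouse 4 it was 2. Without DN of mouse 2, 6 were called and 17 of the 18 differences were negative. The median log2 difference was −2.55, and −3.06 within mice 4 to 6. The list summed to 775, 438, 621 and 549 CPM in DP of mice 3 to 6 and to 4176, 2441 and 1585 CPM in DN of mice 2, 4 and 6, against 12214 to 15089 CPM in NK libraries. In DN of mouse 2, Emb alone gave 3004 of that sum. Emb was above its NK mean in DN of mice 4 and 6 too, at 142.5 and 173.4% of it.

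Eomes, the T-box factor that NK cells need to mature, had 6.62, 0.553, 3.68 and 0.316 CPM in DP of mice 3 to 6, against 93.3, 115 and 33.7 CPM in DN of mice 2, 4 and 6. Every DN library was above every DP library, and every DN library was below the NK range of 396 to 480 CPM. The log2 difference was −4.85 ± 0.80 (SE), with an adjusted p of 0.0452 by edgeR. The direction held in every setting tried, while the threshold was missed when the mouse entered the fit as a block (−5.50, edgeR adjusted p = 0.123) and without the DN library of mouse 2 (−4.73, edgeR adjusted p = 0.0931). Leaving out DN of mouse 4 or DP of mouse 4, 5 or 6 also lost it, with adjusted p of 0.0659 to 0.18. Tbx21, which encodes T-bet, the T-box factor that ILC1s and NK cells share, had 807, 617, 609 and 551 CPM in DP and 416, 573 and 456 CPM in DN, overlapping (log2 difference 0.42, interval −0.32 to 1.17).

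Cma1, a chymase best known from mast cells, showed the lowest DP levels relative to DN of the called genes detected in both groups. It had 0.591, 0.490, 0.767 and 0 CPM in DP of mice 3 to 6, against 13.2, 79.3 and 30.3 CPM in DN of mice 2, 4 and 6. DN of mouse 4 was highest and DN of mouse 2 lowest of the DN libraries, and none reached the NK range of 633 to 777 CPM. The log2 difference was −6.46 ± 0.82 (adjusted p = 0.004 by edgeR). The call was lost when only the DP and DN libraries were fitted (log2 difference −6.50, edgeR adjusted p = 0.284).

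A receptor for movement between tissue and blood fell as well. S1pr5, the sphingosine-1-phosphate receptor that NK cells use to leave tissues, had 3.24, 10.8, 8.41 and 4.49 CPM in DP, against 34.7, 99.8 and 45.5 CPM in DN. The groups did not overlap, and DN of mouse 4 was the highest of the 7 libraries. The log2 difference was −3.16 ± 0.47 (adjusted p = 0.0223 by edgeR). Leaving out DN of mouse 4 (adjusted p = 0.0899 by edgeR), DP of mouse 5 (0.0788) or DP of mouse 6 (0.113) lost the call. Of 12 tissue egress genes, 9 had a negative difference, and the median log2 difference was −1.82. Of the 12, 2 were called, S1pr5 among them, where 0.0467% of all genes tested were called as lower. Klf2, the factor that drives S1pr1 in lymphocytes, had 61.8, 15.6, 25.1 and 28.2 CPM in DP and 152, 224 and 156 CPM in DN without overlap. It missed the threshold (log2 difference −2.44, adjusted p = 0.0792 by edgeR) and passed it with the mouse as a block (−3.09, edgeR adjusted p = 0.0061). Cd69, which holds lymphocytes in tissue by blocking S1pr1, had 66.8 to 108 CPM in DP and 56.2 to 103 CPM in DN, overlapping.

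Klra4 and Klra1, members of the Ly49 family of mouse class I receptors of NK cells, were among the lower genes. Klra4, the activating receptor Ly49D, had 5.96, 2.10, 5.21 and 2.23 CPM in DP, against 17.0, 145 and 63.1 CPM in DN (log2 difference −4.27 ± 0.68, adjusted p = 0.0374 by edgeR, and 0.0769 once the mouse entered the fit as a block). Klra1, the inhibitory receptor Ly49A, had 8.38, 4.81, 4.81 and 3.23 CPM in DP, against 41.7, 70.8 and 25.9 CPM in DN (−3.12 ± 0.48, adjusted p = 0.0295 by edgeR). The groups of both genes were apart, and DN of mouse 4 was again the highest library. Leaving out DN of mouse 4 lost both calls (adjusted p = 0.0921 for Klra4 and 0.0899 for Klra1 by edgeR), as did leaving out DP of mouse 4, 5 or 6, and leaving out DP of mouse 3 lost that of Klra4 (0.0582 to 0.196 over these). Of 25 Ly49 and NKG2 family genes, 16 had a positive and 9 a negative difference, with a median of 0.24. That median turned to −0.26 without DN of mouse 2, with 17 differences negative, and was 0.02 within mice 4 to 6. Klra7, Klra6 and Klra8 had log2 differences of −2.05, −2.67 and −3.07 without a call by edgeR over all libraries. Klra9 and Klra5 had 1.41 and 1.51, also without one. DESeq2 called Klra7, Klra6 and Klra8 as lower (adjusted p = 3.46e-05, 0.00112 and 0.000195). Of the 25 genes DESeq2 called 1 higher and 6 lower, where it called 2.88% of all genes (136 higher and 334 lower). Klra8 also passed in edgeR when mice were blocked (adjusted p = 0.0496) and without DN of mouse 2 (0.0298). Klra7 passed in edgeR without DN of mouse 6 (0.0395). Ly49 genes are close copies, so the level of a single member is uncertain where reads are shared. The activating receptors that ILC1s and NK cells both carry were not called: Ncr1 (NKp46) had 1609 to 1988 CPM in DP and 730 to 1448 CPM in DN, and Klrk1 (NKG2D) had 748 to 1899 CPM in DP and 370 to 1872 CPM in DN.

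Rhpn1, rhophilin 1, had 0 counts in all 4 DP libraries, against 12.6, 5.23 and 3.91 CPM in DN of mice 2, 4 and 6. Taking 3 counts over the DP group as the floor, it was at least 587-fold lower in DP, and at least 371-fold lower without DN of mouse 2. The adjusted p was 0.000724 by edgeR, and 0.237 when only the DP and DN libraries were fitted, which lost the call. In the other populations, the FMSP libraries held 1 read at most (0.015 CPM in that of mouse 5), against 21.9 to 52.4 CPM in NK. Its mean in DN was below the 10 CPM set for naming genes by size of change, so it is named here after its values were seen.

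Of the genes called as lower in DP, Gramd3 was the one that stood higher in DN than in NK cells. It had 2.84, 3.13, 2.76 and 2.86 CPM in DP of mice 3 to 6, against 34.7, 50.1 and 47.0 CPM in DN of mice 2, 4 and 6, and 18.7 to 29.3 CPM in NK. All 3 DN libraries were above all 4 NK libraries. The log2 difference was −3.92 ± 0.42 (adjusted p = 0.000724 by edgeR), and Gramd3 and Gzmc were the genes called in all 16 alternative settings.

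How far DN reached towards NK levels differed from gene to gene within a library. As a percentage of the mean of the 4 NK libraries, the 18 NK genes had medians of 4.50, 1.88, 1.76 and 1.81% in DP of mice 3 to 6, against 7.82, 19.8 and 9.90% in DN of mice 2, 4 and 6. In DN of mouse 2 Eomes was at 21.2% and Cma1 at 1.92% of the NK mean. In DN of mouse 4 Eomes was at 26.2%, Zeb2 at 28.5% and Cma1 at 11.5%, and in DN of mouse 6 Eomes was at 7.67%, Zeb2 at 17.2% and Cma1 at 4.42%. In bulk RNA a few cells with an NK level and many cells with a low level cannot be told apart, and the part of NK cells in these differences was not tested.

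**Figure D3:**
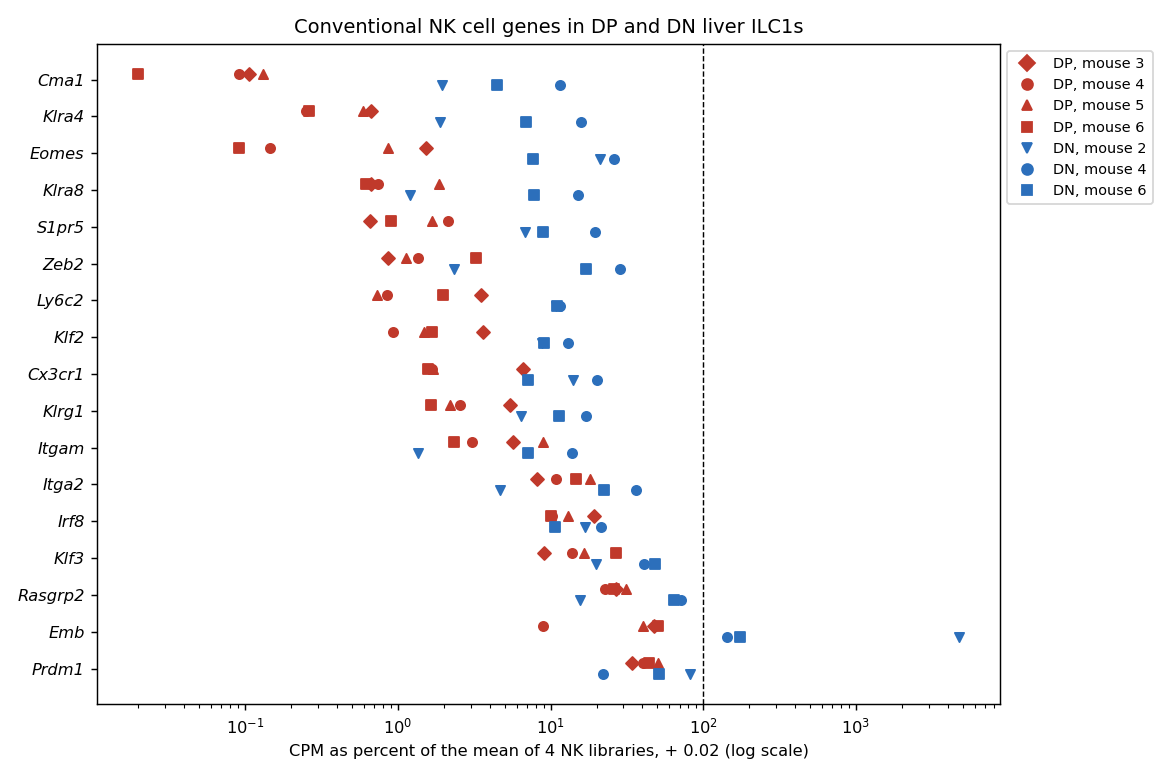
Level of 17 conventional NK cell genes in each DP (red) and DN (blue) library as a percentage of the mean of 4 NK libraries (dashed line at 100%), on a log axis with 0.02 added, marker shape by mouse. DP lies left of DN without overlap for 9 of them. Emb is right of the dashed line in every DN library, and in DN of mouse 2 it is the point far to the right.

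Genes of liver ILC1s did not pass the test in either direction. Of 20 genes, 0 were called by edgeR, and DESeq2 called 1, where it called 2.88% of all genes. DP lay above DN without overlap for 8 of the 20 and below it for 0. Of all genes tested, 4.22% and 4.12% stood apart in this way. An unadjusted p below 0.05 was found for 6 of the 20, all higher in DP. Of all 17124 genes tested 10.2% had one, 554 genes higher and 1200 lower. Of the 20, 19 had a positive difference, with a median log2 difference of 0.74, and 0.54 without the DN library of mouse 2. Xcl1, the chemokine that draws cross-presenting dendritic cells and the gene DESeq2 called (adjusted p = 0.000577), had 1285, 892, 1074 and 1222 CPM in DP and 427, 507 and 656 CPM in DN. Its groups were apart, with a log2 difference of 1.08 ± 0.23 (adjusted p = 0.134 by edgeR). Cxcr6, the receptor that keeps ILC1s in liver sinusoids, had 1058 to 1642 CPM in DP and 576 to 935 CPM in DN (log2 difference 0.69, interval −0.12 to 1.50). Il7r, the interleukin 7 receptor that marks a less cytotoxic ILC1 state, had 50.6, 76.7, 127 and 181 CPM in DP and 30.3, 138 and 204 CPM in DN, overlapping (log2 difference −0.19, interval −1.48 to 1.10). The Hobit gene Zfp683, a residency factor of liver ILC1s, had 102 to 176 CPM in DP and 54.6 to 87.3 CPM in DN (interval −0.13 to 1.72).

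Differences of secreted signals, inhibitory receptors and adaptors were mostly positive, without a call by edgeR over all libraries. Beside the counts below, 10.2% of all 17124 genes tested had an unadjusted p below 0.05 (554 higher and 1200 lower). DESeq2 called 2.88% of all genes (136 higher and 334 lower). Of 14 cytokine and chemokine genes tested, 13 had a positive difference (median 0.62, and 0.36 without DN of mouse 2), 0 were called by edgeR, 3 had an unadjusted p below 0.05 and DESeq2 called Xcl1. Csf1, the macrophage growth factor, had 65.2, 78.6, 43.2 and 27.7 CPM in DP and 12.5, 6.19 and 24.3 CPM in DN (adjusted p = 0.402 by edgeR), whereas interferon gamma (Ifng) had 47.8 to 153 CPM in DP and 46.0 to 157 CPM in DN. Of 14 inhibitory receptors, 11 had a positive difference (median 0.96). None was called by edgeR, 5 higher and 2 lower had an unadjusted p below 0.05, and DESeq2 called 1 higher and 1 lower. Tigit had 22.4 to 55.5 CPM in DP and 14.8 to 21.8 CPM in DN without overlap (adjusted p = 0.33 by edgeR). Of 18 ITAM adaptor and signalling genes, 16 had a positive difference (median 0.44), 0 were called by edgeR, 5 higher and 1 lower had an unadjusted p below 0.05, and DESeq2 called 3 higher and 1 lower. The adaptors DAP12 (Tyrobp, 1540 to 3123 CPM in DP and 831 to 989 CPM in DN) and Fcer1g (1654 to 3057 CPM in DP and 879 to 1046 CPM in DN) did not overlap between groups. Sh2d1a, the adaptor SAP of SLAM receptors, lay the other way, with 1.45, 3.56, 3.01 and 5.03 CPM in DP and 22.7, 40.0 and 19.9 CPM in DN (log2 difference −3.08, adjusted p = 0.0888 by edgeR).

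Among 35 lymphocyte transcription factors Eomes was the called gene, 20 had a positive difference, and the median was 0.13. Without DN of mouse 2 the median was −0.05 and 20 differences were negative. Tox, needed for the development of innate lymphocytes, had 144 to 232 CPM in DP and 59.0 to 128 CPM in DN without overlap (log2 difference 0.89, adjusted p = 0.341 by edgeR and 0.0458 by DESeq2). Lef1, a partner of the Wnt pathway found in less differentiated lymphocytes, had 9.62, 27.1, 13.4 and 12.8 CPM in DP and 100, 51.8 and 39.2 CPM in DN. Its groups were apart as well, and it missed the threshold (log2 difference −2.02, adjusted p = 0.0792 by edgeR). Its relative Tcf7 had 66.2 to 123 CPM in DP and 106 to 156 CPM in DN, overlapping. Of 20 genes of stem-like and precursor lymphocytes, 16 had a negative difference (median −0.67), and 0 were called by edgeR. Their summed level lay the other way without overlap, at 9045 to 12145 CPM in DP and 5280 to 7243 CPM in DN. An unadjusted p below 0.05 was found for 2 higher and 7 lower, where 10.2% of all genes tested had one (554 higher and 1200 lower). DESeq2 called Cd7 as higher and Lef1 as lower, where it called 2.88% of all genes (136 higher and 334 lower). With the mouse as a block edgeR called Ly6a, the Sca-1 antigen, as lower (log2 difference −2.25, adjusted p = 0.0274).

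**Figure D4:**
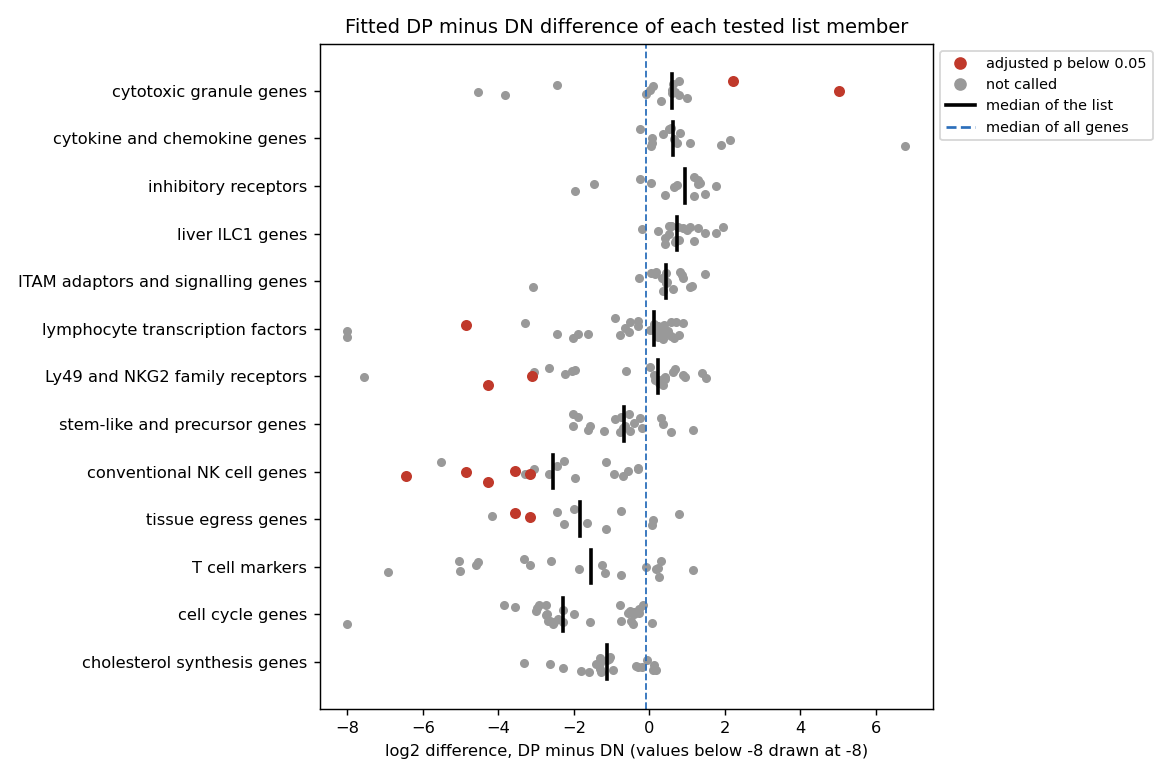
Fitted log2 difference, DP minus DN, of each tested member of 13 gene lists (points, red where called), with the list median (black bar) and the median of all genes tested (dashed, −0.09). Conventional NK cell genes have a median of −2.55, and most points of every list are not called.

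T cell transcripts fell into those apart between the groups and those that overlapped. None was called in the edgeR fit of all 15 libraries with TMM, a minimum count of 10 and no block. Of 18 T cell markers, 13 had a negative difference (median −1.55). Without overlap, 9 lay below DN, as did 4.12% of all genes tested. In that fit 10 lower had an unadjusted p below 0.05, where 10.2% of all genes tested had one (554 higher and 1200 lower). DESeq2 called 7, all lower, where it called 2.88% of all genes (136 higher and 334 lower). With the mouse as a block edgeR called Cd28, a co-stimulatory receptor, as lower (log2 difference −1.24, adjusted p = 0.0496). Trac, the constant region of the alpha chain of the T cell receptor, had 45.5, 13.3, 13.4 and 33.4 CPM in DP, against 331, 193 and 180 CPM in DN (log2 difference −3.15, adjusted p = 0.116 by edgeR). Cd3e, a signalling chain of that receptor, had 62.4, 21.3, 14.6 and 19.6 CPM in DP, against 536, 180 and 165 CPM in DN. Trdc, the delta chain constant region, had 37.2, 29.5, 33.8 and 35.4 CPM in DP, against 138, 96.0 and 136 CPM in DN (log2 difference −1.86, adjusted p = 0.0737 by edgeR), and was called within mice 4 to 6 (−1.82, edgeR adjusted p = 0.0443). The co-receptors Cd5 and Cd6 were at 1.63 CPM or less in every DP library, against 14.8 to 23.4 CPM (Cd5) and 39.8 to 51.9 CPM (Cd6) in DN. Other T cell genes overlapped between the groups, among them Cd3g (316 to 1153 CPM in DP and 156 to 558 CPM in DN), Trbc1 and Lat. Summed over the 18 genes the groups overlapped too, at 2180 to 3172 CPM in DP and 2601 to 3363 CPM in DN, and none of the 18 was at 0 in any DN library. Cd4 (0.179 to 10.3 CPM) and Cd8b1 (2.95 to 6.08 CPM) were low in DN. The part of T cells in the DN libraries was not tested.

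Cell cycle genes had negative differences in nearly all members, without a call by edgeR over all libraries with TMM. Of 30 genes, 29 had a negative difference (median −2.29). Without overlap, 13 lay below DN, as did 4.12% of all genes tested. None was called by edgeR, and 19 lower had an unadjusted p below 0.05. Of all genes tested 10.2% had one (554 higher and 1200 lower). DESeq2 called 10, all lower, where it called 2.88% of all genes (136 higher and 334 lower). Without DN of mouse 6 edgeR called 3 as lower, which were Top2a, Rrm2 and Stmn1. The list summed to 1489, 1233, 1214 and 1312 CPM in DP of mice 3 to 6, against 4628, 2129 and 1603 CPM in DN of mice 2, 4 and 6, and the median log2 difference was −0.96 without DN of mouse 2. Top2a, the topoisomerase of dividing cells, had 8.16, 13.3, 12.5 and 14.0 CPM in DP and 177, 67.6 and 36.6 CPM in DN (log2 difference −2.97, adjusted p = 0.0888 by edgeR). For genes of cholesterol synthesis the sign of the median turned with that library. Of 21, 18 had a negative difference (median −1.11), 0 were called by edgeR, 10 had an unadjusted p below 0.05 and DESeq2 called 1. Without DN of mouse 2 the median was 0.26, and 5 of the 21 differences were negative. Pmvk, phosphomevalonate kinase, lay below DN without overlap, at 7.72 to 10.8 CPM in DP and 40.1, 11.8 and 13.5 CPM in DN of mice 2, 4 and 6. The median of 16 glycolysis genes turned as well, from −0.60 with that library to 0.25 without it, where 13 and 2 differences were negative. Within mice 4 to 6 that median was −0.01, and 9 differences were negative. The glycolysis list summed to 14504 CPM in DN of mouse 2 and 9066 CPM in DP of mouse 3. In the other DP and DN libraries it summed to 4828.5 to 5395 CPM. None of the 16 was called by edgeR or DESeq2 over all libraries, and 4 had an unadjusted p below 0.05. Within mice 4 to 6 Pfkp, a phosphofructokinase, was called as lower (log2 difference −0.94, edgeR adjusted p = 0.046). It had 149, 78.5, 104 and 107 CPM in DP of mice 3 to 6, against 129, 192 and 178 CPM in DN of mice 2, 4 and 6, so DN of mouse 2 was its lowest DN library.

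**Figure D5:**
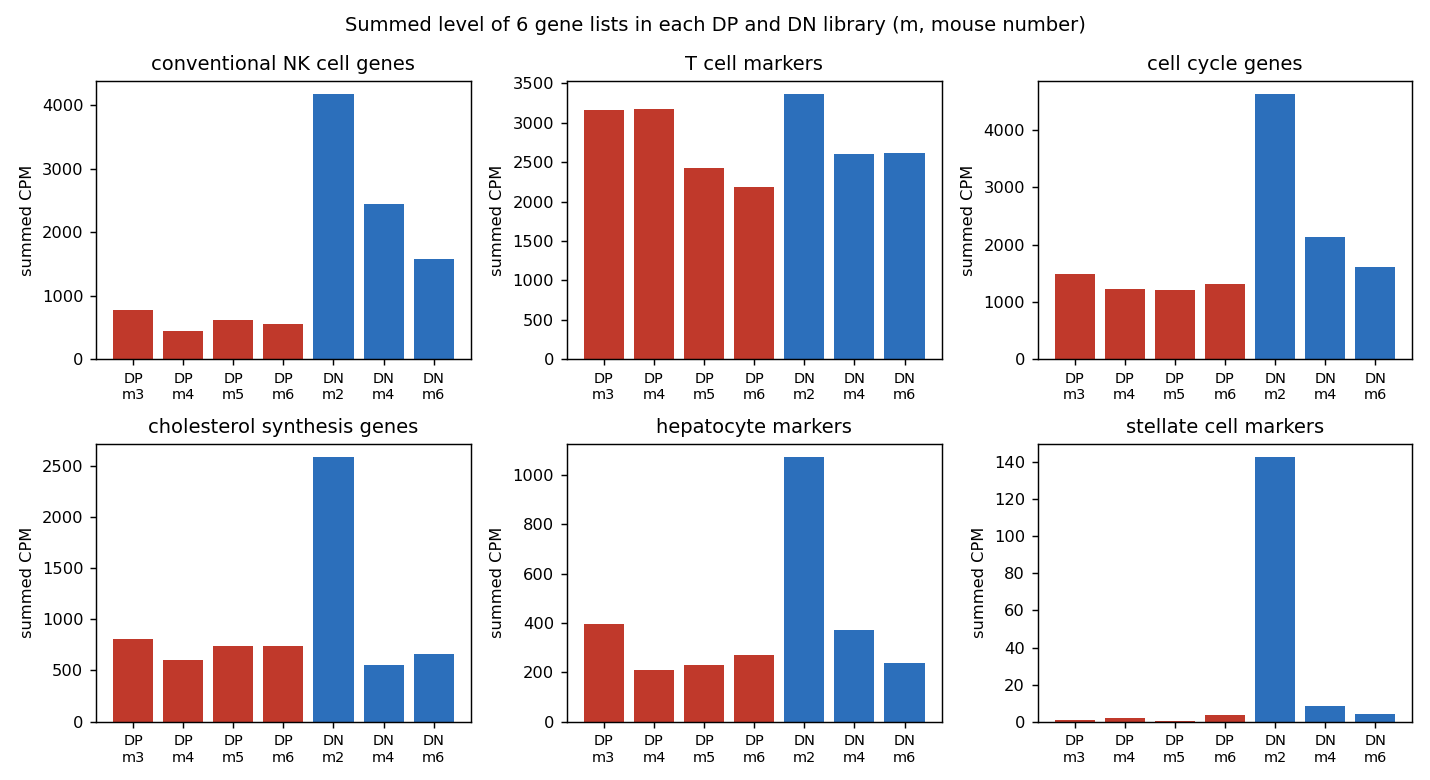
Summed CPM of 6 gene lists in each DP (red) and DN (blue) library, bars from 0, mouse number under each bar. The DN library of mouse 2 is the highest in all 6 panels, and the other DN libraries are above DP for the NK, cell cycle and stellate cell lists.

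Markers of other liver cells were set beside these results. For the counts below, 10.2% of all genes tested had an unadjusted p below 0.05 (554 higher and 1200 lower). DESeq2 called 2.88% of all genes (136 higher and 334 lower). The 18 hepatocyte markers summed to 209 to 397 CPM in DP and 239 to 1072 CPM in DN, 17 of the 18 had a negative difference, and 2 or 3 of them had no count in each DP library, against at most 1 in DN. Albumin had 2.83 to 12.3 CPM in DP and 32.0 to 102 CPM in DN. Of 9 stellate cell markers tested, the sum was 0.188 to 3.42 CPM in DP and 4.40 to 143 CPM in DN. B cell markers (689 to 4490 CPM in DP and 1315 to 2507 CPM in DN) and red cell markers (716 to 3774 CPM in DP and 962 to 9733 CPM in DN) overlapped. No gene of these 4 lists was called by edgeR, and their unadjusted p below 0.05 numbered 9, 4, 0 and 0, with 2, 1, 0 and 0 called by DESeq2. The 12 Kupffer cell and macrophage markers summed to 43.6 to 743 CPM in DP and 138 to 1585 CPM in DN, highest in DN of mouse 2 and DP of mouse 3. The 11 liver endothelial markers tested summed to 116 to 201 CPM in DP and 106 to 445 CPM in DN, overlapping. Neutrophil markers lay the other way as a sum, with 680 to 1076 CPM in DP and 383 to 477 CPM in DN without overlap. Of that sum Mmp9, a gelatinase, gave 648 to 973 CPM in DP and 235 to 361.7 CPM in DN, while 10 of the 11 neutrophil markers had a negative difference. In these 3 lists edgeR and DESeq2 called 0 genes, and the unadjusted p below 0.05 numbered 1, 3 and 2. The part of such cells in the results above was not tested.

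FMSP cells, sorted as negative for current granzyme C, lay between DP and DN in their mean level for all 10 called genes. For Rhpn1 this rested on 0.015 CPM in FMSP of mouse 5, with 0 in the other FMSP libraries and in DP. On a log2 scale with 0.5 CPM added, 8 of the 10 FMSP means were nearer to DP. Those of Gzmc and Klra1 were nearer to DN. FMSP cells were sorted on current granzyme C, so their Gzmc level is not a finding. The 10 genes were picked for their difference between DP and DN, and the share over all genes was not computed. Eomes averaged 5.49 CPM in FMSP, beside 2.79 CPM in DP and 80.7 CPM in DN, and Gzmb averaged 1560 CPM in FMSP, beside 2542 CPM in DP and 541 CPM in DN.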

How the data were processed

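Bulk RNA-seq was made from all cells of a population sorted from 1 mouse per library, per the labels' protocols. The authors deposited estimated counts per gene, as whole numbers, quantified with Salmon 1.6 against a transcriptome not named in the sources used here, per the submitters' processing notes. The deposited ATAC counts per peak come from Bowtie2, SAMtools and MACS2 on mm10, per the submitters' processing notes, over 51412 peaks shared by all libraries (5609587 to 9957335 counts in the 4 liver libraries used). Strand handling is not given in the sources used here, and a RefSeq gene overlaps Gzmc and Eomes. The result of 1 called gene is not reported here. Of the entries, 26 carried a date as symbol (0.265% of counts) and were kept.

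All 15 RNA libraries entered 1 fit in edgeR 4.0.16 (R 4.3.3): filterByExpr with a minimum count of 10, TMM, quasi-likelihood test with robust estimation, population as the factor, 11 residual degrees of freedom, Benjamini-Hochberg adjustment over 17124 genes. SEs are the log2 difference divided by the root of F, and intervals are 95%. DESeq2 1.42.0 was an alternative (811 adjusted p were NA and stayed so). Libraries of one group differed by more than sampling noise, and each is a separate mouse.

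Named genes were the 12 highest and 12 lowest called genes with a mean of at least 10 CPM in DP or DN and no overlap, plus members of 30 lists. Members and lists were chosen with earlier results of these data known, and so no list is independent evidence. Equal mouse numbers mark the same animal per the labels, so numbers pair samples: deviations from group means correlated at a median r of 0.113 over 16 same-mouse pairs and −0.0266 over 68 other pairs (0.203 and 0.153 for DP with DN in mice 4 and 6). Promoters and gene positions are from RefSeq (GRCm38.p6), the build of mm10.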

Additional observations from a re-analysis of the deposited data

Results flagged for a closer look

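Over 42 groups of 4 libraries checked for a sample far from its neighbours (Dixon's test at the 95% level, by which chance marks about 1 in 20), 2 were marked. Gzmb in NK cells of mouse 4 was at 1176 CPM, against 1438 to 1463 CPM in the other 3 NK libraries, and it remained above every DN library and below every DP library. Rhpn1 in FMSP cells of mouse 5 was at 0.015 CPM, which is 1 read, against 0 in the other FMSP libraries. DN, with 3 libraries, was not tested in this way, and none of the DP groups checked was marked.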

How the results depend on the processing

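The counts of called genes (10, 2 higher and 8 lower) were within 1.5 times under RLE scaling, with no filter, with a minimum count of 50 and without the 3 libraries high in hepatocyte markers. They came to 470 (136 higher, 334 lower) with DESeq2, 21 (6 and 15) on library totals alone, 38 (14 and 24) within mice 4 to 6, and 3 (Gzmc, Cdh17 and Gramd3; 1 lower) with only DP and DN libraries fitted, which leaves 5 residual degrees of freedom. With the mouse as a replicate block they were 22 (8 and 14), and in that paired fit Eomes (−5.50, edgeR adjusted p = 0.123) and Klra4 lost their calls, while none of the other 8 calls changed. Leaving out each library in turn gave 5 to 23 called, 2 to 4 higher and 3 to 19 lower, with 5 without DP of mouse 6, 6 without DP of mouse 5 or DN of mouse 4 and 23 without DN of mouse 6. Scaling on library totals put the log2 median of all genes at −0.20, beside −0.09. No direction of the 10 genes reversed in any setting. Gzmc was at 4.80 to 5.18 and called throughout. Gzmb kept its call except with only DP and DN libraries fitted (2.19). Eomes stayed negative, and missed the threshold with the mouse as a block, with no filter (−4.85), with only DP and DN libraries (−4.87), without the libraries high in hepatocyte markers (−4.73), and in 5 of 7 fits that left out a library (range −5.73 to −4.48). Without the libraries high in hepatocyte markers Klra1 also missed it (adjusted p = 0.0898 by edgeR). Some list members not called in the fit of all 15 libraries with TMM and a minimum count of 10 were called by edgeR in other settings. Lef1 was called as lower on library totals alone, with no filter, without DN of mouse 6 and without DP of mouse 4. Within mice 4 to 6 Fcer1g was called as higher and Serpinb9b and Itga4 as lower. Sh2d1a was called as lower without the libraries high in hepatocyte markers. The T cell list had 1 call (Trdc) on library totals alone, with no filter and without the libraries high in hepatocyte markers, and the cell cycle list had 1 (Stmn1) on library totals alone. The causes of these changes were not tested. Depth (51641248 counts or more) leaves genes under about 1 CPM as the imprecise ones, and the 3 DN libraries limit the rest.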

Other observations

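Beyond the 10 called genes, 8 genes were called both with the mouse as a block and within mice 4 to 6, which share libraries and are not independent of each other. They were picked after their values were seen. The 3 higher in DP were S100a6, a calcium-binding protein, with 1098, 573, 594 and 494 CPM in DP of mice 3 to 6 against 212, 222 and 236 CPM in DN of mice 2, 4 and 6, Kcnj8, the pore of an ATP-sensitive potassium channel, with 347, 252, 205 and 202 CPM in DP against 60.3, 104 and 99.9 CPM in DN, and the GTPase gene Rhoc, with 90.5 to 141 CPM in DP against 53.2 to 76.8 CPM in DN. None of these 3 overlapped between the groups. The 5 lower in DP were Klf2, Ly6c2, Flna, Rasgrp2 and Klra13-ps. Ly6c2, a surface marker of mature NK cells, had 66.3, 15.7, 13.5 and 37.4 CPM in DP and 205, 217 and 209 CPM in DN (adjusted p = 0.0805 over all libraries and 0.00706 with the block, by edgeR). Flna, Rasgrp2 and Klra13-ps overlapped between the groups.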
